A study of Mus musculus with 32 samples.

Results

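The genes described here encode nuclear subunits of respiratory complexes II to V and the carrier cytochrome c, in microglia of WT mice and of the tau model rTg4510. They were chosen by name, at a time when earlier results of these data were known: protein-coding genes with the symbols Sdha, Sdhb, Sdhc, Sdhd, Cyc1 and Cycs, or with symbols that start with Uqcr, Cox4, Cox5, Cox6, Cox7, Cox8 or Atp5, and no pseudogenes. Of 49 such genes in the annotation, 45 had a row among the 18588 genes measured. These comprised 4 genes of complex II, 9 of complex III, the gene of cytochrome c, 14 of complex IV and 17 of complex V. The other 4, Cox4i2, Cox7a1, Cox7b2 and Cox8c, are isoforms with restricted tissue expression and were not analysed here, nor were the subunits that mitochondrial DNA encodes.

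The respiratory chain passes electrons from nutrients to oxygen along the inner mitochondrial membrane. Complex II takes them from succinate, complex III hands them to cytochrome c, and complex IV, cytochrome c oxidase, reduces oxygen, while complex V, the ATP synthase, uses the proton gradient to make ATP. Parts of complexes III, IV and V are encoded in the mitochondrial genome, but most subunits come from nuclear genes, and some complex IV subunits exist in a general form and in a form of muscle or testis. Microglia are the resident macrophages of the brain, and macrophages are known to alter their use of oxidative phosphorylation when they are activated.

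RNAseq was performed on microglia that were captured with CD11b MicroBeads from the pooled forebrains of 8 to 10 female mice per library, at 2, 4, 6 and 8 months of age. rTg4510 mice carry a human tau transgene with the P301L mutation together with the CaMKIIα-driven activator that turns it on postnatally in forebrain neurons, so the transgene is not expressed by design in the microglia themselves. WT mice were littermates without the transgenes, and the labels give their strain as 129/FVB F1. Every group began with 4 libraries. The authors set 4 of the 32 aside for failed RNAseq QC, which left 28: groups of 4 at 2 and 6 months, and groups of 3 at 4 and 8 months, where replicate 3 and replicate 4, respectively, were dropped in both genotypes. A value below is a log2 gene signal, normalized by the authors so that the median of each library was 5.63. It is not scaled to transcript length, so signals are compared between libraries and not between genes. The study states only an approximate depth common to all samples, and totals of single libraries were not analysed here. A gene is called here when the FDR of a linear model over all 28 libraries was under 0.05, and is a DEG when it also changed more than 1.5 fold. In bulk samples a smaller share of some cells and less RNA per cell cannot be told apart.

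The preparations were checked with marker lists. All 10 microglia markers were in the table, far above the floor of the libraries, with a summed level (log2 of summed linear signals) of 14.79 to 15.26 in WT and 14.47 to 15.01 in rTg4510. Microglia markers were called lower for 4, 6, 7 and 7 of 10 genes at 2, 4, 6 and 8 months, and higher for 0, 1, 2 and 1. Of all 18588 genes 236, 1692, 2777 and 1817 were called lower at these ages. The 5 neutrophil markers summed to 8.80 to 10.21 in WT and 7.18 to 10.30 in rTg4510, and all 5 were called lower at 6 and at 8 months. Summed levels of the other lists were 3.84 to 6.88 for the 3 neuron markers in the table, 9.48 to 11.62 for 6 astrocyte markers, 6.43 to 10.67 for 6 oligodendrocyte markers, 6.88 to 8.76 for 5 endothelial markers, 6.07 to 8.78 for 7 pericyte and smooth muscle markers and 10.05 to 11.15 for 6 border macrophage markers. The median marker of each list had a negative log2 fold change from 4 months on, between -0.25 and -2.02, but single markers went the other way. Of the endothelial markers 1 was called higher at 4, 6 and 8 months (0.979, 1.888 and 1.166), beside 1, 2 and 1 lower. Of the astrocyte markers 1 was called higher at 6 and 8 months (1.521 and 1.797), beside 2 and 3 lower. Of 7 striated muscle markers 0 had a row. The part of cell composition in the results that follow was not tested.

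Promoters of these genes are known for binding sites of the factors NRF1 and GABP, the latter an ETS protein, and 1 stretch is shown for each complex, from the gene with the largest mean change at 4, 6 and 8 months among those with a RefSeq promoter. Each is the 120 bases just before the start of transcription, read 5′ to 3′ on the strand of the gene from the RefSeq sequences of GRCm38.p6, with matches to the NRF1 core GCGCANGC or to the ETS core CCGGAAG on either strand in capitals. The stretches are chr4:140961151-140961270 (plus strand) for Sdhb, chr4:116075071-116075190 (minus) for Uqcrh, chr6:50566570-50566689 (minus) for Cycs, chr19:7217617-7217736 (minus) for Cox8a and chr2:174464102-174464221 (minus) for Atp5e.
Sdhb: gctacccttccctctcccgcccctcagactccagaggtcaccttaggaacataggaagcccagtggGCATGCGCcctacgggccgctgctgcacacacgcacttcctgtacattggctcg
Uqcrh: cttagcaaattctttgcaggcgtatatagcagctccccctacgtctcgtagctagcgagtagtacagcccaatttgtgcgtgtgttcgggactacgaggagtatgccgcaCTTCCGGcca
Cycs: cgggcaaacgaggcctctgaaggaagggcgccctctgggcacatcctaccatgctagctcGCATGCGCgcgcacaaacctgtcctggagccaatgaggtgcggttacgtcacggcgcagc
Cox8a: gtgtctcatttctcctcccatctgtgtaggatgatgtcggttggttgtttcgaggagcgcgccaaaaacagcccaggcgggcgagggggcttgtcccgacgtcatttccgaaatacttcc
Atp5e: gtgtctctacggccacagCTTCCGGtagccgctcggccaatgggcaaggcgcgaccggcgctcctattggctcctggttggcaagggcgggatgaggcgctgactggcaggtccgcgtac
Sdhb and Cycs held the NRF1 core and Uqcrh and Atp5e the ETS core, while neither was found in the stretch of Cox8a. The whole promoter window of Cox8a, as counted below, did hold the ETS core.

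Over whole windows, from 250 bases before the first listed start to 50 after it, RefSeq promoters were at hand for 35 of the 45 genes. The NRF1 core was found in 14 of them (40.0%), against 18.6% of 11802 promoters of genes in the table and 10.1% of all 27025 promoters. The ETS core was found in 12 (34.3%), against 16.7% and 9.12%. At least 1 of both cores was present in 54.3% of the subunit promoters, in 39.4% of 33 complex I promoters and in 31.7% of the promoters of genes in the table. CAAGGTCA, the letters of an estrogen-related receptor site, were found in 3 (8.57%, against 1.08%), AAGATGGC, the YY1 core, in 2 (5.71%, against 4.31%) and GGGCGG, the SP1 box, in 14 (40.0%, against 60.4%). None of these motifs is contained in another, although matches can overlap, both strands were searched, and a match in letters is not a bound site.

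Subunit genes of complexes II to V were higher in rTg4510 microglia from 4 months of age on. At 2 months 6 of 45 were called higher in rTg4510 (4.76% of all genes tested) and none was a DEG (0 of 45 by the limma fit, against 1.58% of all genes), although 16 had an unadjusted p under 0.05. At 4 months 35 were called higher (background 14.1%) and 25 were DEGs (9.47%). At 6 months 41 were called higher (19.1%) and 27 were DEGs (11.3%), and at 8 months the counts were 34 (16.0%) and 21 (10.5%). No subunit gene was called lower in rTg4510 at any age by this fit. The median log2 fold change was 0.18, 0.64, 0.67 and 0.55 at 2, 4, 6 and 8 months, beside medians of 0.01, -0.04, -0.04 and -0.01 over all genes.

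**Figure D1:**
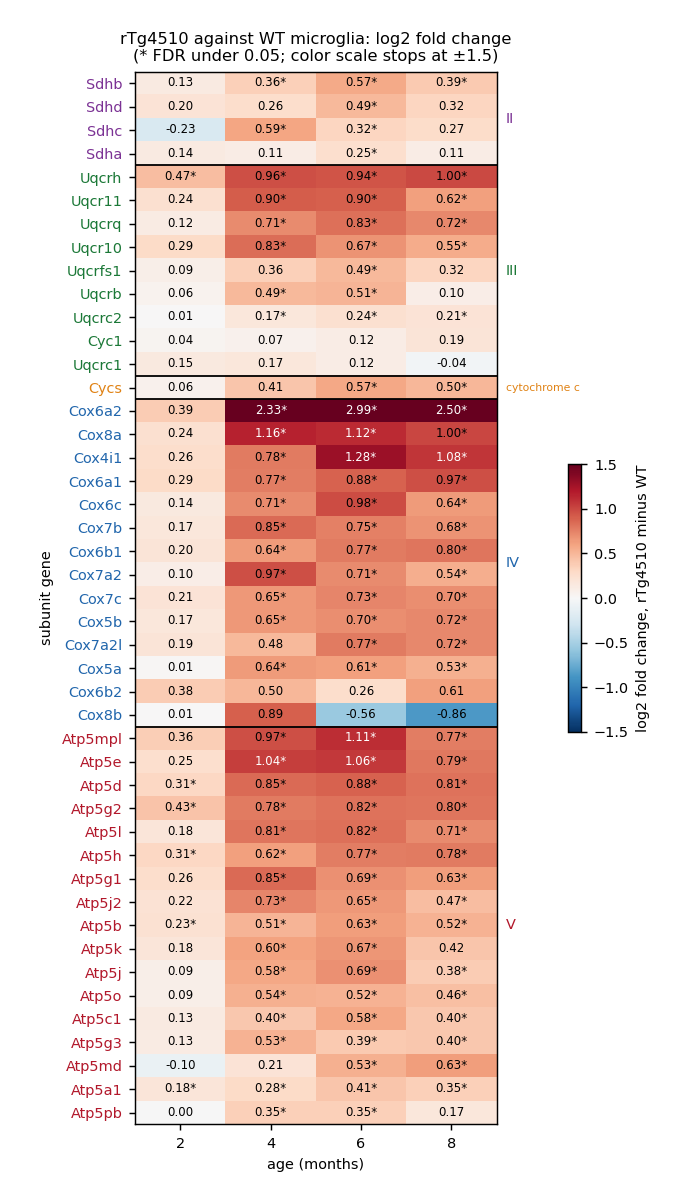
Log2 fold change of rTg4510 against WT microglia (color and number) for the 45 subunit genes (rows, by complex) at each age in months (columns), with a star where the FDR was under 0.05. From 4 months on nearly all cells are positive, with Cox6a2 highest, while Uqcrc1, Cyc1, Cox6b2 and Cox8b, whose WT signals were near the floor at 2 and 4 months, carry no star at any age.

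In total 31 genes were called at 4, 6 and 8 months, 19 were DEGs at all of these ages, and 29 were DEGs at 1 age or more. The 4 genes without a call at any age were Cyc1 and Uqcrc1 of complex III and Cox6b2 and Cox8b of complex IV. Every rTg4510 library lay above every WT library for 12 genes at 2 months and for 38 genes at each of 4, 6 and 8 months. Over all genes that share was 7.49%, 19.1%, 18.2% and 21.2%. The reverse, all rTg4510 libraries below all WT libraries, was seen for 0 genes at 2, 4 and 6 months and for Cox8b at 8 months. The 6 genes called at 2 months were Uqcrh of complex III and Atp5a1, Atp5b, Atp5d, Atp5g2 and Atp5h of complex V. These were the genes called at all 4 ages. The calls at 2 months rest on the spread pooled over the libraries of the fit. With all 32 libraries, where those added were of 4 and 8 months, 0 were left. With only the groups of 2 months in the fit, 1 was left. The count at 4 months was 22 with only the groups of that age, and the count at 8 months was 22 with all 32 libraries.

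The signals of a library can be summarised by the mean over the subunits of a complex, each gene being centred on its mean over the 28 libraries. Over all 45 genes this mean was -0.13 ± 0.04 (SD, n = 4), -0.27 ± 0.10 (n = 3), -0.29 ± 0.05 (n = 4) and -0.34 ± 0.02 (n = 3) in WT at successive ages. In rTg4510 it was 0.04 ± 0.11 (n = 4), 0.37 ± 0.07 (n = 3), 0.39 ± 0.09 (n = 4) and 0.23 ± 0.04 (n = 3). The ranges of the genotypes did not overlap at any age, with the nearest libraries at -0.095 in WT and -0.043 in rTg4510 at 2 months. The WT mean was lowest at 8 months, and the rTg4510 mean was highest at 6 months. Without Cox6a2 and Cox8b the means were -0.12, -0.24, -0.28 and -0.35 in WT and 0.05, 0.36, 0.38 and 0.20 in rTg4510.

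**Figure D2:**
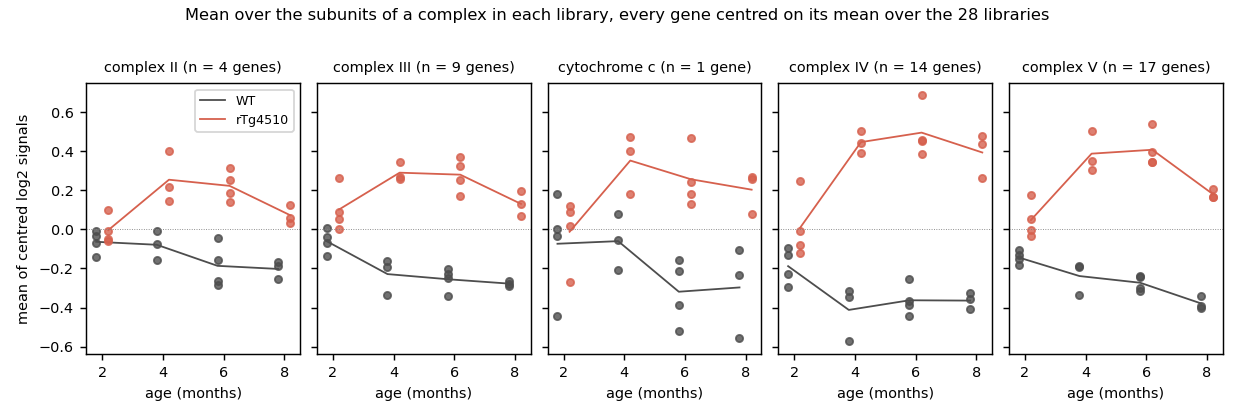
Mean over the subunit genes of a complex in each library (points; log2, every gene centred on its mean over the 28 libraries) against age in months, with lines through the group means of WT (grey) and rTg4510 (red). In all 4 complexes the genotypes were separate at 4, 6 and 8 months, and in complex V at 2 months too, with means of 0.446 against -0.412 for complex IV at 4 months and 0.18 against -0.379 for complex V at 8 months.

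Complex II, succinate dehydrogenase, is the only one of these complexes with no subunit from the mitochondrial genome. Its 4 genes showed small differences: 0, 2, 4 and 1 were called higher at 2, 4, 6 and 8 months, and Sdhc at 4 months was the only DEG. The shares of all genes called higher were 4.76%, 14.1%, 19.1% and 16.0%, so 1 of 4 genes at 8 months was near the share. The same shares stand beside the counts of the other complexes below. The median log2 fold change was 0.135, 0.31, 0.41 and 0.30.

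Sdha encodes the flavoprotein that oxidizes succinate. Its signals in WT were 7.09, 7.29, 7.31 and 7.29 at 2 months, 7.40, 7.40 and 7.31 at 4 months, 7.26, 7.38, 7.35 and 7.37 at 6 months and 7.09, 7.45 and 7.41 at 8 months. In rTg4510 they were 7.28, 7.43, 7.44 and 7.40, then 7.48, 7.53 and 7.43, then 7.60, 7.63, 7.51 and 7.65, and last 7.43, 7.41 and 7.44. The genotypes overlapped at 2 and 8 months and were separate at 4 and 6 months. The difference passed the test at 6 months alone (log2 fold change 0.25, SE 0.0623, FDR 0.0031), and not with all 32 libraries.

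Sdhb encodes the iron-sulfur subunit. WT libraries gave 7.23, 7.45, 7.55 and 7.59 at 2 months, 7.56, 7.35 and 7.30 at 4 months, 7.18, 7.24, 7.34 and 7.11 at 6 months and 7.17, 7.19 and 7.26 at 8 months. rTg4510 libraries gave 7.61, 7.58, 7.73 and 7.43, then 7.77, 7.89 and 7.63, then 7.65, 7.89, 7.79 and 7.83, and last 7.55, 7.62 and 7.63. From 4 months on every rTg4510 library was above every WT library, and Sdhb was the complex II gene called at all of these ages, with log2 fold changes of 0.36, 0.57 and 0.39 (SE 0.0928, 0.0803 and 0.0928, FDR 0.00631, 8.33e-06 and 0.0028). The call at 4 months was lost with only the groups of that age, and the call at 8 months with all 32 libraries.

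Sdhc and Sdhd anchor the enzyme in the membrane. Sdhc signals in WT were 6.22, 6.33, 6.29 and 6.15 at 2 months, 6.02, 6.15 and 5.98 at 4 months, 5.83, 5.80, 6.25 and 6.09 at 6 months and 5.78, 5.86 and 5.97 at 8 months. In rTg4510 Sdhc was at 5.90, 5.93, 6.27 and 5.97, then 6.39, 6.95 and 6.60, then 6.13, 6.39, 6.55 and 6.18, and last 6.24, 6.08 and 6.11. Most rTg4510 libraries were thus below WT at 2 months, and all were above WT at 4 and 8 months. The log2 fold changes were -0.23, 0.595, 0.32 and 0.27 with FDRs of 0.352, 0.0027, 0.0421 and 0.164. The call at 4 months was lost with all 32 libraries, where the value was 1.368, and with only the groups of that age. The call at 6 months was lost without rTg4510 replicate 2 or 3 or WT replicate 1 or 2 (0.24 to 0.30), with all 32 libraries, with only the groups of that age and with the other centring.
Sdhd in WT was at 6.60, 6.36, 6.41 and 6.63 at 2 months, 6.43, 6.78 and 6.49 at 4 months, 6.29, 6.22, 6.59 and 6.51 at 6 months and 6.63, 6.54 and 6.33 at 8 months. Sdhd in rTg4510 was at 6.89, 6.53, 6.67 and 6.71, then 6.64, 6.95 and 6.89, then 6.88, 6.81, 7.10 and 6.78, and last 6.72, 7.11 and 6.64. The groups were separate at 6 and 8 months, and the call was made at 6 months (0.49, SE 0.119, FDR 0.00284) and lost with all 32 libraries. At 8 months the FDR was 0.0932, and a call was made there with the replicate block.

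Complex III, the cytochrome bc complex, joins core proteins with several small subunits. Of its 9 genes 1, 6, 7 and 5 were called higher at 2, 4, 6 and 8 months, and 0, 4, 4 and 3 were DEGs. The core proteins Uqcrc1 and Uqcrc2 and the heme-carrying cytochrome Cyc1 showed little difference. Uqcrc1 had log2 fold changes of 0.15, 0.17, 0.12 and -0.04 and Cyc1 of 0.04, 0.065, 0.12 and 0.19, with no call at any age. Uqcrc2 was called at 4, 6 and 8 months with 0.17, 0.24 and 0.21. Uqcrc1 libraries at 6 months stood at 6.14, 6.18, 6.06 and 5.97 in WT and at 6.15, 6.05, 6.31 and 6.31 in rTg4510, so the groups overlapped. Uqcrb, which binds ubiquinone, was called at 4 and 6 months (0.49 and 0.51) and not at 8 months (0.10, FDR 0.699).

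Uqcrfs1 encodes the Rieske iron-sulfur protein, the last catalytic subunit to be inserted. WT signals were 7.05, 6.76, 6.81 and 6.56 at 2 months, 6.57, 6.21 and 6.48 at 4 months, 6.44, 6.56, 6.49 and 6.61 at 6 months and 6.54, 6.76 and 6.74 at 8 months. rTg4510 signals were 6.68, 6.95, 7.05 and 6.86, then 6.74, 7.02 and 6.59, then 6.65, 6.91, 7.26 and 7.24, and last 6.86, 7.12 and 7.01. All rTg4510 libraries were above WT from 4 months on, by small margins such as 6.59 against 6.57 at 4 months. The difference was called at 6 months (0.49, SE 0.132, FDR 0.00628), a call that was lost with all 32 libraries and with only the groups of that age. With all 32 libraries the value at 4 months was 1.013 and was called.

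Larger differences were found for the small subunits Uqcrh, the hinge protein beside the cytochrome, and Uqcr10, Uqcr11 and Uqcrq. Uqcrh libraries of WT gave 7.76, 7.62, 7.39 and 7.53 at 2 months, 7.60, 7.52 and 7.33 at 4 months, 7.40, 7.40, 7.81 and 7.52 at 6 months and 7.45, 7.46 and 7.17 at 8 months. Those of rTg4510 gave 7.95, 7.89, 8.30 and 8.02, then 8.43, 8.58 and 8.34, then 8.47, 8.45, 8.60 and 8.36, and last 8.38, 8.44 and 8.26. The groups were separate at every age. Uqcrh was 1.38, 1.95, 1.92 and 1.99 times as high in rTg4510 at 2, 4, 6 and 8 months (FDR 0.00813, 3.67e-06, 4.1e-07 and 1.9e-06), although the call at 2 months was lost with all 32 libraries and with only the groups of that age. Uqcr11 had log2 fold changes of 0.90, 0.90 and 0.62 from 4 months on, Uqcrq of 0.71, 0.83 and 0.72, and Uqcr10 of 0.835, 0.67 and 0.55, all called.

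Cycs encodes cytochrome c, which carries electrons to complex IV and also triggers caspase activation when it leaves the mitochondrion. WT libraries stood at 6.70, 6.49, 6.08 and 6.52 at 2 months, 6.60, 6.47 and 6.31 at 4 months, 6.14, 6.01, 6.31 and 6.37 at 6 months and 6.42, 5.97 and 6.29 at 8 months. rTg4510 libraries stood at 6.25, 6.54, 6.61 and 6.64, then 6.71, 7.0 and 6.92, then 6.70, 6.77, 6.66 and 6.99, and last 6.79, 6.78 and 6.60. The genotypes overlapped at 2 months and were separate afterwards. Log2 fold changes of 0.41, 0.575 and 0.50 at 4, 6 and 8 months had FDRs of 0.0516, 0.00145 and 0.0163. The call at 8 months was lost without rTg4510 replicate 1 (0.467), rTg4510 replicate 2 (0.472) or WT replicate 2 (0.372), with all 32 libraries, with only the groups of that age and with the replicate block, while the difference at 4 months was called without rTg4510 replicate 1 (0.497) or WT replicate 1 (0.482) and with low-signal genes left out. Cycs has 9 pseudogene copies, 3 of them in the table, with which reads could be shared.

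Complex IV had the largest median difference of the complexes from 4 months on. Of its 14 genes none was called at 2 months (0 by the limma fit, with 5 at an unadjusted p under 0.05), 11 were called at 4 months, 12 at 6 months and 12 at 8 months. All called genes were DEGs at 4 and 6 months, and 10 were at 8 months. The median log2 fold change was 0.19, 0.74, 0.76 and 0.71.

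Cox6a2 had the largest difference of all 45 genes at 4, 6 and 8 months. It is the isoform of subunit VIa found in heart and skeletal muscle, while Cox6a1 is the general form. Cox6a2 signals in WT were 5.83, 5.27, 5.53 and 5.36 at 2 months, 5.35, 5.64 and 4.93 at 4 months, 4.14, 4.86, 5.56 and 5.26 at 6 months and 5.25, 4.31 and 5.57 at 8 months. In rTg4510 they were 6.02, 5.60, 6.31 and 5.61, then 7.65, 7.71 and 7.56, then 7.96, 7.96, 8.07 and 7.76, and last 7.53, 7.56 and 7.53. The groups overlapped at 2 months, and from 4 months on every rTg4510 library was at 7.53 or above while every WT library was at 5.64 or below. Cox6a2 was 5.04, 7.92 and 5.64 times as high in rTg4510 as in WT at 4, 6 and 8 months respectively (log2 fold change 2.33, 2.99 and 2.50, SE 0.309, 0.267 and 0.309, FDR 6.22e-06, 1.36e-08 and 2.03e-06), beside 1.31 times at 2 months (FDR 0.546).

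Cox6a1 was called from 4 months on as well. WT gave 8.79, 8.86, 8.88 and 8.97 at 2 months, 8.82, 8.79 and 8.66 at 4 months, 8.54, 8.87, 8.74 and 9.0 at 6 months and 8.60, 8.58 and 8.49 at 8 months. rTg4510 gave 9.12, 9.02, 9.39 and 9.12, then 9.31, 9.62 and 9.66, then 9.62, 9.59, 9.92 and 9.56, and last 9.45, 9.57 and 9.55. Every rTg4510 library was above every WT library at all 4 ages. The log2 fold changes were 0.29, 0.77, 0.88 and 0.97 (FDR 0.104, 2.54e-05, 3.83e-07 and 1.05e-06). The coding sequences of both isoforms are 64.6% identical over 291 aligned bases, and Cox6a2 has no pseudogene copy in the annotation.

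The balance of isoform and partner was compared within libraries as the difference of their log2 signals, with two-sided exact permutation tests for 3 pairs at 4 ages. Cox6a2 minus Cox6a1 was higher by 1.56 in rTg4510 than in WT at 4 months (-1.89 ± 0.22 against -3.45 ± 0.29, SD, n = 3 each), by 2.11 at 6 months (-1.73 ± 0.11 against -3.84 ± 0.51, n = 4 each) and by 1.53 at 8 months (-1.99 ± 0.05 against -3.51 ± 0.69, n = 3 each), beside 0.10 at 2 months. The exact p values were 0.1, 0.0286 and 0.1, the smallest that 3 against 3 and 4 against 4 libraries can give, and none passed adjustment over the 12 comparisons (adjusted p by the permutation test 0.2, 0.171 and 0.2). All libraries of a genotype lay on their own side at 4, 6 and 8 months.

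The other restricted isoforms in the table were Cox6b2 and Cox8b. Cox6b2, the testis form of subunit VIb, was at 4.50, 3.74, 3.82 and 4.15 in WT at 2 months, 3.39, 3.48 and 4.48 at 4 months, 4.30, 3.93, 4.16 and 4.17 at 6 months and 4.18, 4.24 and 3.79 at 8 months. In rTg4510 Cox6b2 was at 4.85, 4.02, 4.81 and 4.06, then 3.97, 4.47 and 4.41, then 4.66, 3.88, 4.31 and 4.76, and last 5.30, 4.58 and 4.17. The genotypes overlapped at every age, and with SEs of 0.282 to 0.326 none of the log2 fold changes of 0.38, 0.50, 0.26 and 0.61 was called.
Its general partner Cox6b1 was at 8.18, 7.86, 7.98 and 8.27 in WT at 2 months, 8.16, 8.15 and 7.84 at 4 months, 8.13, 8.13, 8.04 and 8.01 at 6 months and 7.82, 7.70 and 7.86 at 8 months. In rTg4510 Cox6b1 was at 8.17, 8.28, 8.38 and 8.25, then 8.63, 8.73 and 8.69, then 8.91, 8.82, 8.97 and 8.72, and last 8.59, 8.52 and 8.67. The groups were separate from 4 months on, and Cox6b1 was a DEG there (0.64, 0.77 and 0.80, FDR 2.93e-05, 1.72e-07 and 1.14e-06). The difference Cox6b2 minus Cox6b1 differed by 0.19, -0.14, -0.51 and -0.19 (rTg4510 minus WT), with exact permutation p values of 0.571, 1.0, 0.0571 and 0.7.

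Cox8b, the muscle form of subunit VIII, was close to the floor of the libraries, and all WT libraries at 2 and 4 months lay within about 3 counts of the lowest value, so that its fitted differences at these ages, alone or against Cox8a, are no measure of fold. Its signals in WT were 2.91, 2.43, 2.35 and 2.49 at 2 months, 2.24, 1.62 and 1.46 at 4 months, 4.48, 2.33, 2.81 and 2.07 at 6 months and 3.80, 3.84 and 3.90 at 8 months. In rTg4510 they were 2.34, 2.65, 3.6 and 1.62, then 2.97, 1.35 and 3.67, then 2.39, 2.23, 3.10 and 1.73, and last 3.47, 3.07 and 2.41. The groups overlapped except at 8 months, where rTg4510 was below WT, and none of the differences was called (FDR 0.997, 0.312, 0.43 and 0.318). The log2 difference Cox8b minus Cox8a was -6.12 ± 1.16 in WT and -7.79 ± 0.43 in rTg4510 at 6 months (SD, n = 4 each), a value of -1.68 for rTg4510 minus WT (exact permutation p = 0.0286, adjusted p 0.171). At 6 months the WT libraries at 2.33, 2.81 and 2.07 and the rTg4510 libraries at 2.39, 2.23 and 1.73 were near the floor too. This value is therefore no measure of fold either. Without WT replicate 1 (4.48) it was -1.109, and Cox8a by itself was higher by 1.118 in rTg4510 at that age. At 2, 4 and 8 months rTg4510 minus WT was -0.23, -0.27 and -1.86 (exact permutation p = 0.571, 0.9 and 0.1, adjusted p 0.84, 0.982 and 0.2), so none passed the adjusted test.
Cox8a, the general form, was by contrast a DEG from 4 months on. WT libraries gave 9.30, 9.26, 9.31 and 9.15 at 2 months, 8.89, 8.76 and 8.47 at 4 months, 8.89, 8.90, 9.24 and 9.10 at 6 months and 8.93, 9.06 and 8.96 at 8 months. rTg4510 libraries gave 9.54, 9.37, 9.63 and 9.45, then 9.69, 9.83 and 10.08, then 10.02, 10.19, 10.39 and 10.01, and last 9.90, 10.09 and 9.94. Every rTg4510 library was above every WT library at all ages. Cox8a was 2.23, 2.17 and 2.00 times as high at 4, 6 and 8 months (FDR 2.47e-07, 2.35e-08 and 1.36e-06), and 1.18 times at 2 months (FDR 0.235).

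Cox4i1, the general form of subunit IV, had the second largest difference at 6 and 8 months. WT signals were 7.89, 8.01, 8.10 and 8.14 at 2 months, 8.00, 8.00 and 7.76 at 4 months, 7.56, 7.64, 7.65 and 7.48 at 6 months and 7.55, 7.56 and 7.62 at 8 months. rTg4510 signals were 8.30, 8.31, 8.39 and 8.18, then 8.76, 8.83 and 8.52, then 8.81, 8.74, 9.11 and 8.80, and last 8.65, 8.63 and 8.68. The groups were separate at every age, and WT libraries were lower at 6 and 8 months than at 2 months. Log2 fold changes were 0.26, 0.78, 1.28 and 1.08 (SE 0.0808, 0.0933, 0.0808 and 0.0933, FDR 0.0625, 1.61e-06, 1.06e-10 and 1.75e-08). At 2 months a call was made with the replicate block, with low-signal genes left out and without rTg4510 replicate 4 (0.30).

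**Figure D3:**
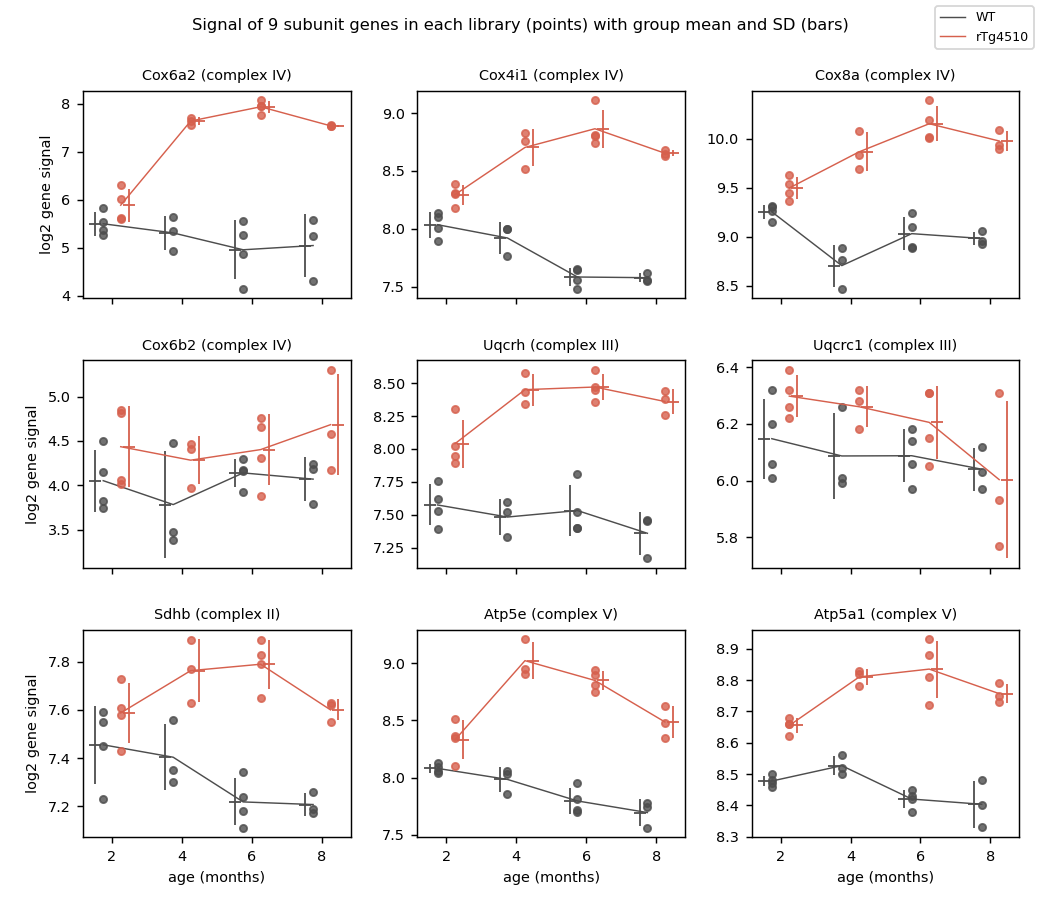
Log2 gene signal of 9 subunit genes, chosen after their values were seen, in each library (points) against age in months, with group means (lines) and mean and SD (bars) of WT (grey) and rTg4510 (red). Cox6a2, Cox4i1, Cox8a, Uqcrh, Sdhb, Atp5e and Atp5a1 separate the genotypes from 4 months on, whereas the libraries of Cox6b2 and Uqcrc1 overlap.

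Cox7a2 and Cox7b are the general partners of isoforms not analysed here. Cox7a2 in WT was at 7.58, 7.36, 7.29 and 7.55 at 2 months, 7.18, 7.15 and 6.80 at 4 months, 7.33, 7.08, 7.53 and 7.14 at 6 months and 7.21, 7.15 and 7.36 at 8 months. Cox7a2 in rTg4510 was at 7.49, 7.30, 7.81 and 7.59, then 7.93, 8.13 and 7.99, then 7.92, 8.26, 8.11 and 7.63, and last 7.76, 7.95 and 7.64. The genotypes overlapped at 2 months and were separate later, with log2 fold changes of 0.10, 0.97, 0.71 and 0.54 (FDR 0.801, 6.18e-05, 0.000261 and 0.0118). With all 32 libraries the calls of Cox7a2 were lost at 4, 6 and 8 months (0.523 at 4 months), and without rTg4510 replicate 2 of 8 months that at 8 months was lost too (0.463), as it was with only the groups of that age.
Cox7b in WT was at 8.65, 8.45, 8.45 and 8.81 at 2 months, 8.76, 8.41 and 8.21 at 4 months, 8.34, 8.30, 8.70 and 8.47 at 6 months and 8.49, 8.39 and 8.49 at 8 months. Cox7b in rTg4510 was at 8.67, 8.79, 8.93 and 8.66, then 9.19, 9.42 and 9.32, then 9.11, 9.33, 9.29 and 9.09, and last 9.22, 9.19 and 8.99. It overlapped at 2 months and was a DEG at 4, 6 and 8 months (0.85, 0.75 and 0.68). The call at 4 months was lost with only the groups of that age.
Of the remaining complex IV genes, Cox5a, Cox5b, Cox6c and Cox7c were called from 4 months on, with log2 fold changes between 0.53 and 0.98. Cox7a2l, which joins complexes III and IV into supercomplexes, was called at 6 and 8 months (0.77 and 0.72) and not at 4 months (0.485, FDR 0.138).

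Complex V held 5 of the 6 genes called at 2 months. Of its 17 genes 5, 16, 17 and 15 were called higher at 2, 4, 6 and 8 months, and 0, 9, 11 and 8 were DEGs. The median log2 fold change was 0.185, 0.60, 0.665 and 0.52. The catalytic head is built from Atp5a1 (alpha) and Atp5b (beta). Atp5a1 libraries were at 8.46, 8.50, 8.47 and 8.48 in WT and at 8.66, 8.62, 8.68 and 8.66 in rTg4510 at 2 months, and at 8.38, 8.43, 8.42 and 8.45 against 8.72, 8.88, 8.81 and 8.93 at 6 months. The libraries of each group were close together and did not overlap. The differences of Atp5a1 were small and passed the test at all ages (0.18, 0.28, 0.415 and 0.35, SE 0.0345 to 0.0398, FDR 0.00206, 1.41e-05, 4.56e-09 and 5.99e-07), as did those of Atp5b (0.23, 0.51, 0.63 and 0.52).

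Atp5e, the epsilon subunit of the central stalk, had log2 fold changes of 0.25, 1.04, 1.06 and 0.79. WT signals were 8.09, 8.04, 8.06 and 8.13 at 2 months, 8.03, 8.06 and 7.86 at 4 months, 7.72, 7.81, 7.95 and 7.70 at 6 months and 7.56, 7.78 and 7.74 at 8 months. rTg4510 signals were 8.35, 8.36, 8.51 and 8.10, then 8.95, 9.21 and 8.91, then 8.81, 8.90, 8.94 and 8.75, and last 8.63, 8.35 and 8.48. The genotypes overlapped at 2 months through 1 rTg4510 library and were separate later (FDR 8.15e-08, 3.14e-09 and 2.32e-06). Without that library, replicate 4, the difference at 2 months was called (0.33). Atp5d, the delta subunit of the same stalk, rose by 0.31, 0.85, 0.88 and 0.81 and was called at all ages, while Atp5c1, the gamma subunit, had 0.13, 0.40, 0.58 and 0.40 and was called from 4 months on.

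The rotor ring of complex V is made of subunit c, a single protein that Atp5g1, Atp5g2 and Atp5g3 each encode with a different leader. Atp5g1 in WT was at 5.51, 5.18, 5.56 and 5.52 at 2 months, 5.40, 5.33 and 4.84 at 4 months, 5.55, 5.42, 5.44 and 5.51 at 6 months and 5.29, 5.55 and 5.33 at 8 months. Atp5g1 in rTg4510 was at 5.55, 5.55, 6.07 and 5.65, then 5.90, 6.07 and 6.17, then 6.06, 6.26, 6.34 and 6.00, and last 6.10, 6.04 and 5.92. Its groups were separate from 4 months on (0.85, 0.69 and 0.63). The call at 4 months was lost with all 32 libraries, where the value was 0.414, and with only the groups of that age, and the call at 8 months with all 32 libraries (0.547).
Atp5g2 in WT was at 6.02, 6.26, 6.12 and 6.22 at 2 months, 6.13, 6.13 and 6.17 at 4 months, 6.07, 6.21, 6.05 and 6.23 at 6 months and 5.64, 5.99 and 6.05 at 8 months. Atp5g2 in rTg4510 was at 6.51, 6.53, 6.81 and 6.51, then 6.84, 7.08 and 6.84, then 6.88, 6.88, 7.21 and 6.86, and last 6.73, 6.68 and 6.67. Its groups were separate at all ages, with log2 fold changes of 0.43, 0.78, 0.82 and 0.80 (FDR 0.00504, 1.05e-05, 4.34e-07 and 6.08e-06). The call at 2 months was lost with all 32 libraries and with only the groups of that age.
Atp5g3 in WT was at 6.97, 6.90, 7.30 and 7.16 at 2 months, 7.03, 6.93 and 6.89 at 4 months, 6.91, 6.89, 6.86 and 6.78 at 6 months and 6.70, 6.60 and 6.78 at 8 months. Atp5g3 in rTg4510 was at 7.33, 7.21, 7.28 and 7.01, then 7.48, 7.67 and 7.27, then 7.26, 7.20, 7.39 and 7.14, and last 7.02, 7.07 and 7.18. It was called from 4 months on with smaller differences (0.525, 0.39 and 0.40), which did not reach 1.5 fold, and with all 32 libraries these calls were lost, as was that at 4 months with only the groups of that age. Pairs of the 3 coding sequences are 68.6% to 72.5% identical, but Atp5g1 and Atp5g2 each have 2 pseudogene copies in the table, so that their values are less certain.

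Of the other complex V genes, Atp5mpl, a small protein of the membrane part, rose by 0.97, 1.11 and 0.765 at 4, 6 and 8 months. The peripheral stalk genes Atp5h (0.62, 0.77 and 0.78), Atp5o (0.54, 0.52 and 0.46) and Atp5j (0.58, 0.69 and 0.38) were called at each of these ages, and Atp5pb at 4 and 6 months (0.35 at both). Atp5l, Atp5k and Atp5md sit where ATP synthases pair in the membrane. Atp5l was called from 4 months on (0.805, 0.82 and 0.71), Atp5k at 4 and 6 months (0.60 and 0.665), and Atp5md at 6 and 8 months (0.53 and 0.63).

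The genotype effect was larger at 4 than at 2 months for 17 of the 45 genes by the test of that difference (background 5.26% of all genes), with a median of 0.45 over the 45 genes and -0.03 over all genes. The smallest FDRs were those of Atp5e (0.79, FDR 0.000678), Cox8a (0.92, FDR 0.000976) and Atp5d (0.55, FDR 0.00232), and the largest difference was that of Cox6a2 (1.95, SE 0.408, FDR 0.00483). By complex, 1 of 4 genes in complex II, 2 of 9 in complex III, 8 of 14 in complex IV and 6 of 17 in complex V passed. The count was 9 without WT replicate 4 of 4 months, 9 with all 32 libraries and 9 with only the 4 groups of the comparison. No gene passed between 6 and 4 months (0 of 45 by the limma fit, background 0.172%, 2 genes at an unadjusted p under 0.05) or between 8 and 6 months (0 of 45, background 0.0%, 1 gene at an unadjusted p under 0.05), and moderated variances gave 0 for both too. The medians were 0.05 and -0.11.

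With age, some subunit signals fell in WT and some rose in rTg4510. Between 2 and 8 months 6 genes were called lower in WT (background 3.39%) and 0 higher (0.818%), and the difference was positive for 4 of the 45. Those called were Atp5md (-0.81, SE 0.18, FDR 0.0146), Atp5j2 (-0.53), Cox4i1 (-0.46), Uqcr11 (-0.435), Atp5g3 (-0.39) and Atp5e (-0.38). The WT count was 2 without replicate 4 of 2 months or replicate 1 of 8 months, 3 without replicate 3 of 2 months or replicate 2 of 8 months, and 0 with all 32 libraries or only the 2 groups. In rTg4510 10 genes were called higher (10.6%) and 1, Uqcrc1, lower (11.0%; -0.295, FDR 0.0486), and 36 differences were positive. The genes called higher were Cox6a2 (1.66), Cox8a (0.48), Atp5b (0.46), Atp5d (0.40), Cox7b (0.37), Cox6a1 (0.36), Cox7c (0.36), Cox4i1 (0.36), Cox6b1 (0.33) and Atp5h (0.31), 7 of them in complex IV. The rTg4510 count of 11 became 7 without replicate 2 of 2 months or of 8 months, 7 with only the 2 groups, and 1 with all 32 libraries.

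Across the 45 genes, which share libraries and are not independent, Spearman's rho of log2 fold change and transcript length was -0.29, -0.53, -0.42 and -0.41 at 2, 4, 6 and 8 months. Across 13685 protein-coding genes rho was -0.055, -0.15, -0.17 and -0.14. The 26 subunit genes with transcripts of at most 750 bases had medians of 0.20, 0.72, 0.75 and 0.67, against 0.09, 0.26, 0.31 and 0.27 for the 511 protein-coding genes of that length. The 9 subunit genes with 1500 to 3000 bases had 0.14, 0.28, 0.32 and 0.21, against -0.001, -0.04, -0.03 and -0.02 for 5201 genes. In each length class with more than 1 subunit gene the subunits thus had the larger median, and the part of length in the differences between subunits was not tested further.

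**Figure D4:**
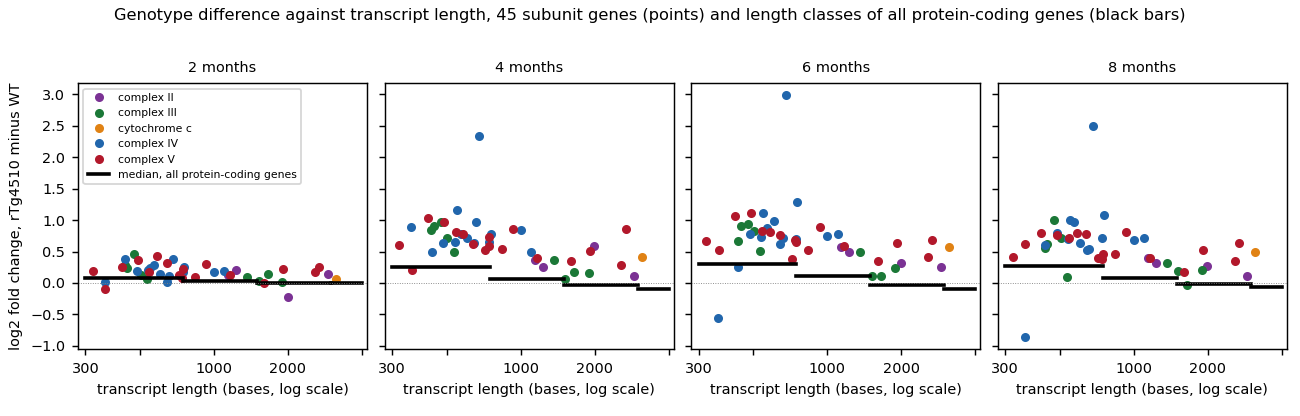
Log2 fold change of rTg4510 against WT (vertical axis) against transcript length in bases (horizontal, log scale) for the 45 subunit genes, colored by complex, in 1 panel per age, with black bars at the median of all protein-coding genes of each length class. Short subunit transcripts lie highest at 4, 6 and 8 months, and most points lie above the bar of their class.

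Near-identical pseudogene copies (at least 90% identity over at least 50% of the coding sequence), with which the counting of reads may have been shared, were found in the annotation for 23 of the 45 genes. For 17 of these, 33 copies had rows of their own, and the copies of Uqcr10, Uqcrq, Cox5a, Cox6a1, Cox7b and Atp5k had none. Of the 22 genes for which no copy was found 3, 15, 18 and 14 were called higher at 2, 4, 6 and 8 months, with medians of 0.165, 0.55, 0.53 and 0.40. Of the 28 genes without a copy among the rows 3, 21, 24 and 19 were called higher at 2, 4, 6 and 8 months, with medians of 0.18, 0.62, 0.65 and 0.53. Of the 17 with a copy among the rows 3, 14, 17 and 15 were called, with medians of 0.18, 0.65, 0.70 and 0.63. The copies themselves were called higher for 3, 18, 18 and 17 of 33 rows. Beside all of these counts, 4.76%, 14.1%, 19.1% and 16.0% of all genes were called higher. Gm10175 and Gm10231, whose sequences are identical to the coding sequence of Atp5g2, had mean signals of 10.96 and 10.93 where Atp5g2 had 6.44, and Gm12338, identical to that of Cox7c, had 11.74 where Cox7c had 8.32. Signals are not scaled to transcript length, so these levels of different genes are only described. Because reads may be shared with a copy, values of subunits with a copy are uncertain.

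The subunits were set beside other mitochondrial gene lists in the same fit. Of all genes 4.76%, 14.1%, 19.1% and 16.0% were called higher at 2, 4, 6 and 8 months. Of 38 complex I subunits 0, 17, 29 and 18 were called higher, with medians of 0.04, 0.33, 0.43 and 0.37. Of 6 genes for the exchange of ATP and phosphate 1, 5, 5 and 5 were called, among them the phosphate carrier Slc25a3 (0.685 at 6 months), the ADP/ATP carriers Slc25a4 (0.67) and Slc25a5 (0.59), and the porin Vdac2 (0.61). Of 15 genes of import, chaperones and membranes 3, 5, 9 and 7 were called, led at 6 months by the chaperonin Hspe1 (1.265), Hspa9 (0.47), Tomm20 (0.72) and Hspd1 (0.49). Ndufa4 and Atpif1, which work in complexes IV and V but fall outside the rule on names, were both called at 6 months (0.59 and 0.495).

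Of 37 assembly factors of complexes II to V 0, 5, 9 and 3 were called higher (4 at an unadjusted p under 0.05 at 2 months), with medians of 0.03, 0.18, 0.175 and 0.10. Those with the smallest FDR at 6 months were Coa5 (0.98), the copper chaperone Cox17 (0.65), Cmc1 (0.67) and Pet100 (0.60). Of 22 regulators of respiratory genes 2, 3, 4 and 6 were called higher and 0, 1, 1 and 0 lower. Over all genes the shares called higher were 4.76%, 14.1%, 19.1% and 16.0%. At 4 months both lists were thus near the share over all genes. The hypoxia factor Hif1a was higher by 0.32, 1.42, 1.57 and 1.49 and the coactivator Ppargc1b by 0.64, 1.09, 1.13 and 1.69 at 2, 4, 6 and 8 months, all called, and Chchd2 and Rbpj followed at 6 months (0.52 and 0.445). Nrf1, whose core was found in the promoters above, had values of -0.08, -0.28, -0.14 and -0.15 without a call, and Gabpa had -0.15, -0.05, 0.10 and 0.26 with a call at 8 months.

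**Figure D5:**
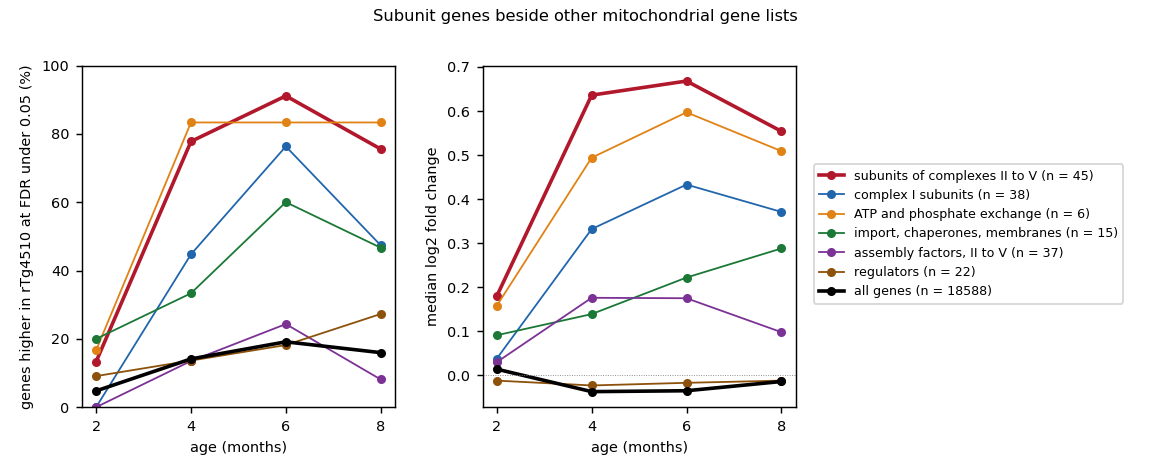
Share of genes called higher in rTg4510 (left, percent) and median log2 fold change (right) against age in months for the 45 subunit genes, 5 other mitochondrial gene lists and all genes. At 6 months 41 of 45 subunit genes were called higher, beside 19.1% of all genes and 9 of 37 assembly factors.

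After subtraction of the group means, the median correlation over the 990 pairs of subunit genes was 0.20 across the 28 libraries, and 78.6% of pairs were positive, against 0.01 and 51.1% over all pairs of genes and 0.16 and 73.0% over 703 pairs of complex I genes. The pairs share libraries, and the value is a description. The mean deviation of the 45 genes was largest in rTg4510 replicate 3 of 2 months (0.17), followed by rTg4510 replicate 3 of 6 months (0.13) and WT replicate 4 of 4 months (-0.12).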

How the data were processed

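RNAseq of CD11b-captured microglia was analysed from the table of log2 gene signals that the authors deposited. To make it, the authors had summed reads by exon, dropped exons that fell short of 10 counts in over 80% of the samples, combined the exons of each gene by robust regression, and median normalized the log2 values. The submitters' processing notes name the build GRCm38, and the aligner is not given in the sources used here. The study states only an approximate depth common to all samples. Totals of single libraries were not analysed here and the deposited signals are not counts, so no counting interval was computed, and the number of libraries limits the precision.

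Symbols were matched for 95.9% of 18588 genes. A linear model with 8 group means and unmoderated variances was fitted over the 28 kept libraries with limma 3.58.1 in R 4.3.3, and p-values were adjusted by Benjamini-Hochberg over all genes, separately for each contrast. The fit was tested on simulated data. Isoform ratios were compared with exact permutation tests (scipy 1.17.1), and pseudogene copies were found with BLAST+ 2.17.0. Low values were read as log2 of a count plus 1.5, which is inferred from their steps and not stated: 36.0% of 64871 low values lay on whole counts (tolerance 0.003), against 23.5% midway between them, which is weak evidence for that reading. On it, signals no more than 3 counts over the lowest value of their library are called near the floor.

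Same-numbered libraries of both genotypes deviated together at 6 months (r of 0.131 to 0.153 across genes) and 8 months (0.15 to 0.291). There the numbers may pair them, on these values alone, but the main fit and the permutation tests were unpaired at every age. At 2 months r was positive for every same-numbered pair too (0.065 to 0.167, beside -0.194 to 0.082 for other pairs). The numbers were not read as pairs at that age, nor at 4 months (-0.1 to 0.124). The replicate block, given as an alternative only, used them at every age. The labels do not say what separates replicates, but the paper describes 4 biological replicates per genotype and age, from pooled forebrains. The p-values therefore measure the spread between these pools and not between single mice. Values in every library are given for the 2 largest DEGs of each age, restricted isoforms and their partners, complex II genes, Cycs, Uqcrfs1, the subunit c genes and genes near the floor. Uqcrh, Atp5e, Atp5a1 and Uqcrc1 were added after their values were seen. From each other list up to 4 genes with the smallest FDR at 6 months are named, with Nrf1 and Gabpa added after their values were seen. The subunit genes and all lists were chosen with earlier results of these data known. Alternatives were all 32 libraries, quantile normalization, another centring (on the median of the upper genes), moderated variances, only the groups compared, a filter on low signals, a replicate block and leaving out each library.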

Additional observations from a re-analysis of the deposited data

Results flagged for a closer look

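Library values that stood apart from the other 3 of their group by Dixon's criterion were found in 12 of 180 sets of 4 libraries, and chance alone flags about 1 in 20. Of these, 6 were in rTg4510 replicate 3 at 2 months, the library with the largest mean deviation of the subunits: Uqcr11 at 7.66, Uqcrq at 8.39, Cox5a at 7.71, Atp5d at 8.81, Atp5g2 at 6.81 and Atp5h at 6.76. The count of genes called at 2 months was 4 without it. The others were Atp5j2 at 7.55 in rTg4510 replicate 2 of 2 months, Cox6a1 at 9.92 and Atp5g2 at 7.21 in rTg4510 replicate 3 of 6 months, Atp5o at 6.95 in rTg4510 replicate 4 of 6 months, Sdha at 7.09 in WT replicate 1 and Atp5g1 at 5.18 in WT replicate 2 of 2 months.

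The genotype effect differed between 4 and 2 months, by the test of the difference in the limma fit, for 17 genes, in each case with the larger value at 4 months. The log2 differences were 1.95 for Cox6a2, 0.92 for Cox8a, 0.87 for Cox7a2, 0.83 for Sdhc, 0.79 for Atp5e, 0.68 for Cox7b, 0.67 for Uqcr11, 0.62 for both Atp5l and Cox5a, 0.60 for Atp5mpl, 0.55 for both Atp5d and Uqcr10, 0.52 for Cox4i1, 0.50 for Atp5j, 0.44 for both Cox7c and Cox6b1 and 0.29 for Atp5b.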

How the results depend on the processing

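Counts and isoform ratios stayed within 1.5 times the reported count, or kept direction and side of the threshold, in 289 recomputations, moved in 18 and turned sign in 6. With all 32 libraries the called genes numbered 0 at 2 months, 22 at 8 months, 9 for 4 against 2 months, 0 for WT and 1 for rTg4510 between 8 and 2 months. With only the groups compared they numbered 1 at 2 months, 22 at 4 months, 9 for 4 against 2 months, 0 for WT and 7 for rTg4510. Centring on the upper genes gave 3 for WT. Leaving out 1 library gave 9 to 23 for 4 against 2 months, 2 to 7 for WT and 7 to 13 for rTg4510 between 8 and 2 months, and 4 to 7, 32 to 36, 39 to 41 and 30 to 34 for the genotype effect at 2, 4, 6 and 8 months. The cause was not tested.

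The replicate block gave 6, 35, 41 and 34 called genes at the 4 ages, of which 5, 35, 41 and 33 were also called without it, and 15 for 4 against 2 months. Among genes with values in every library, the block ended the call of Cycs at 8 months and added those of Sdhd at 8 months and Cox4i1 at 2 months. The age comparisons within a genotype have no block. In alternatives chosen after seeing the data and compared as shares, 3, 21, 24 and 19 of the 28 genes without a pseudogene copy in the table were called, and 3, 15, 18 and 14 of the 22 without any copy found.

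Among differences that were not called, the sign turned for Cox6b2 minus Cox6b1 at 8 months (0.018 with all 32 libraries, leaving out 1 library -0.502 to 0.103) and at 4 months (-0.388 to 0.316), for Cox8b minus Cox8a at 4 months (0.043 with all 32 libraries, -0.664 to 0.375) and 2 months (-0.538 to 0.065), for Cox8b at 2 months (-0.032 with quantile normalization, -0.019 with the other centring, and -0.34 to 0.32 without 1 library, with -0.056, -0.029, -0.025 and -0.01 between), for Sdha at 8 months (-0.002 to 0.176) and for Cycs at 2 months (-0.062 to 0.148). The signals are not counts, so a low gene such as Cox8b, near the floor in WT at 2 and 4 months, has no counting interval.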
